A study of Homo sapiens with 12 samples.

Results

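The genes described here lie on the long arm of human chromosome 11, in bands 11q14 to 11q22, around a stretch where transcript levels were higher in erlotinib-resistant cells than in their parental line. The 39 genes were chosen because of how they stood in that same comparison, and 37 of them had at least 1 probe set annotated to a single symbol, out of 11963 genes measured. SESN3 and MAML2 had no such probe set and are named only. The values that chose the genes are given for ERC4 against parental cells as a description with no test. Tests are given for the comparison of Esh9-1 with NT, whose changes come from other arrays. The standard errors behind these tests come from a single model fitted to all arrays. The parental and ERC4 arrays therefore enter the spread used in each test, and the tests are not fully separate from the choice of genes.

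HCC827 is an established human lung adenocarcinoma cell line that carries an activating EGFR mutation. Expression arrays were made from 4 groups of 3: HCC827 parental cells, ERC4 cells labelled as erlotinib resistant, HCC827NT cells carrying a lentivirus with a non-target shRNA as control, and HCC827 Esh9-1 cells carrying a lentivirus with an shRNA against EGFR. One field of the labels calls the samples of all 4 groups resistant to EGFR inhibitors, parental cells included, which is at odds with the fields that name the groups. The groups used here follow the titles, and the resistance of the cells was not analysed here. Medium held 5% FBS for every group, and 5 ug/ml puromycin for HCC827NT and Esh9-1 cells. ERC4 is 1 resistant line and Esh9-1 is 1 shRNA label, so what belongs to that line or that shRNA cannot be told apart from resistance or EGFR loss. The labels do not say whether the 3 arrays of a group came from separate cultures, and the spread behind each p-value may therefore be technical only.

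Levels are log2 of the deposited intensity plus 1, and each gene is represented by the probe set with the highest mean over the 12 arrays. The parental and ERC4 arrays had a median log2 level of 5.72, and the NT and Esh9-1 arrays one of 7.17, so that levels are compared only within each of these sets of 6 arrays. Lung epithelial markers lay above the median of their set for 8 of 8 measured genes in parental, ERC4 and NT cells and for 7 in Esh9-1 cells, and leukocyte markers for 0 of 6 in all 4 groups. The level of the epithelial markers differed, however, in both comparisons. Their median was 10.89 in parental and 9.03 in ERC4 cells, and 12.73 in NT and 8.94 in Esh9-1 cells. Of 7 fibroblast and endothelial markers, 2 lay above the median of their set in parental cells and 1 in each other group. Hybridisation controls, which are spiked into the sample, had a mean log2 level of 11.04 in parental and 9.48 in ERC4 cells, and of 11.37 in NT and 11.92 in Esh9-1 cells. The signal of the ACTB control at its 3' end exceeded that at its 5' end by 1.07 in Esh9-1 and by 0.20 in NT cells, against 0.22 in parental and 0.19 in ERC4 cells. The part of the epithelial markers or of either control in the results below was not tested.

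Genes that lie side by side on a chromosome need share no function, but they share the copy number and the chromatin of their segment. Chromosome arm 11q holds several stretches that carcinomas are known to gain, and the one at 11q22 carries YAP1, a coactivator of growth genes, and BIRC2, which encodes the ubiquitin ligase cIAP1. An array of RNA from many cells reads the summed transcript of a gene, so that fewer cells with a transcript and less transcript per cell cannot be told apart. DNA copy number was not analysed here.

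The higher stretch in ERC4 cells began before the first of the named genes. Over the 473 genes of chromosome 11 whose parental or ERC4 mean reached 5.72, the run of neighbours with the largest sum of log2 change minus 0.5 went from CLNS1A to MTMR2. It held 30 genes with a median log2 change of 1.21, which is 2.31-fold, and quartiles of 0.84 and 1.51. Of these genes, 4 members and 2 others, RSF1 and TMEM135, reached the level only through their ERC4 mean. With the dim genes kept in the search the run had the same ends and held 48 genes with a median of 0.84, and the 18 dim genes had one of -0.05. Of these 30, 19 were members and 11 were not, and 10 of the 11 lay between CLNS1A and PICALM, the first member. Relative to the parental mean, the median over the 30 genes was 1.25, 1.24 and 1.18 on the 3 ERC4 arrays and -0.08, 0.06 and 0.02 on the 3 parental arrays. The run was found on these same arrays, so these medians only describe it.

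**Figure D1:**
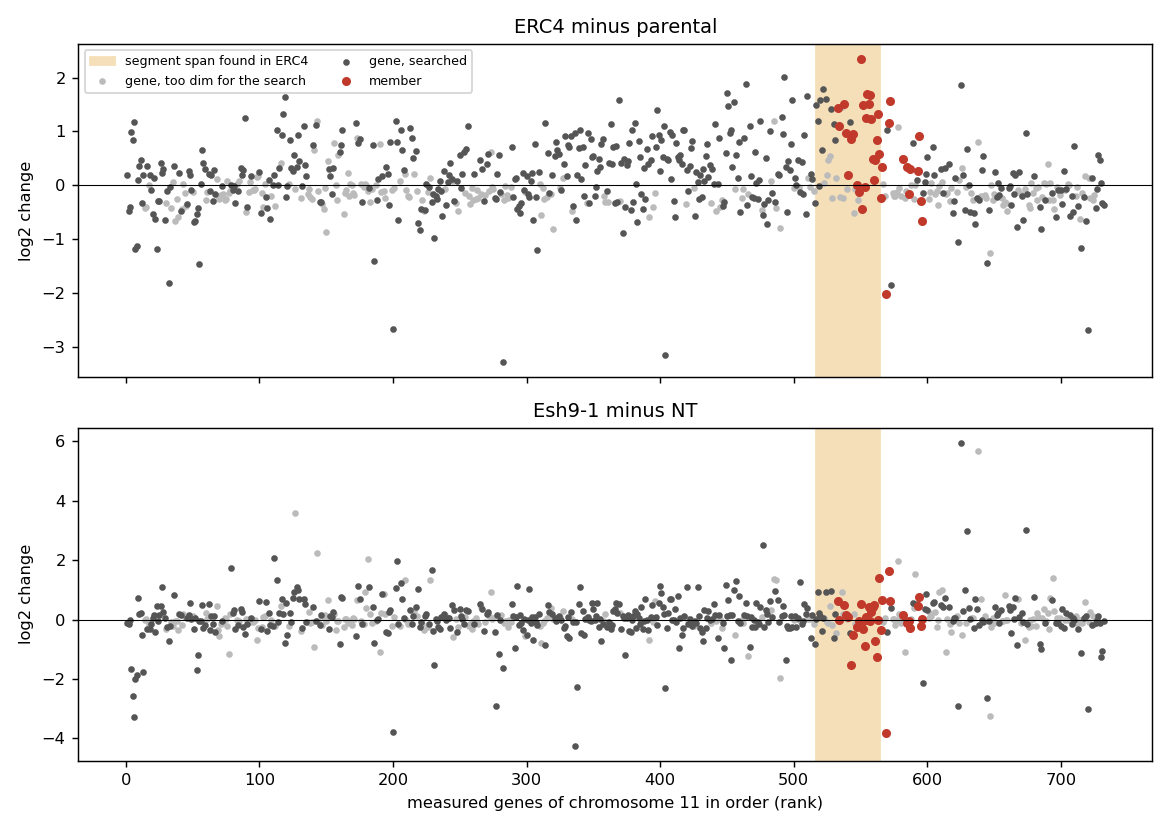
Log2 change of each measured gene of chromosome 11 in ERC4 minus parental cells (top) and Esh9-1 minus NT cells (bottom), by rank along the chromosome. Members are red, other genes dark grey, genes too dim for the search light grey, and the 30 searched genes of the shaded span from CLNS1A to MTMR2 have a median change of 1.21 at the top and 0.08 at the bottom.

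At the proximal end, the log2 change was -0.33 ± 0.11 (SE) for MYO7A, an unconventional myosin gene and the last searched gene outside. It was 1.49 ± 0.07 for CLNS1A, a gene of the spliceosome-assembly machinery and the first inside. MYO7A reached the level of the search only through its parental mean of 5.82, against 5.49 in ERC4 cells, and its groups overlapped. RSF1, a chromatin remodelling gene, followed CLNS1A at 1.19 ± 0.10 from a parental mean of 5.64, under the level of the search. AAMDC then broke the run at -0.01 ± 0.09. Next came ALG8, a glycosyltransferase gene, at 1.59 ± 0.07, and GAB2 at 0.66 ± 0.13, with a parental SD of 0.33. NARS2, the mitochondrial asparaginyl-tRNA synthetase gene, stood at 1.79 ± 0.06. The last 10 searched genes before CLNS1A had a median change of 0.17, with changes from -0.54 to 1.66. Single genes outside the run were thus higher by as much as genes inside it. At the distal end, CEP57 was higher by 1.31 and MTMR2 by 0.57, and the next measured genes, CCDC82 and JRKL, were dim, with changes of -0.24 ± 0.12 and 0.35 ± 0.11. The next searched gene after MTMR2 was TRPC6, with a change of -2.02.

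Both ends moved with the settings. The distal end fell on CEP57 instead of MTMR2 after either form of quantile normalization, when probe sets were averaged, and with 0.7 in place of 0.5. The proximal end moved out to MRPL48 after median centring (51 genes, median 1.01) and with the mean of probe sets (47 genes, median 0.96). The 21 searched genes from MRPL48 to MYO7A had a median change of 0.34 as deposited, with changes from -0.54 to 2.01. With 0.3 in place of 0.5 the run went from ASRGL1 to TMEM123 and held 203 genes with a median of 0.50.

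The best run on chromosome 11 scored 19.79, where the score is the sum of log2 change minus 0.5 over its genes. The best runs on the other autosomes scored at most 7.66 and that on chromosome X 10.33, from TBL1X to WDR13. The members were chosen on this same comparison, so nothing is read from the rank of chromosome 11. Outside the run, the 356 searched genes on the proximal side of chromosome 11 had a median change of 0.21 and the 87 on the distal side one of -0.08, against 0.08 for the 6872 searched genes of the other chromosomes.

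**Figure D2:**
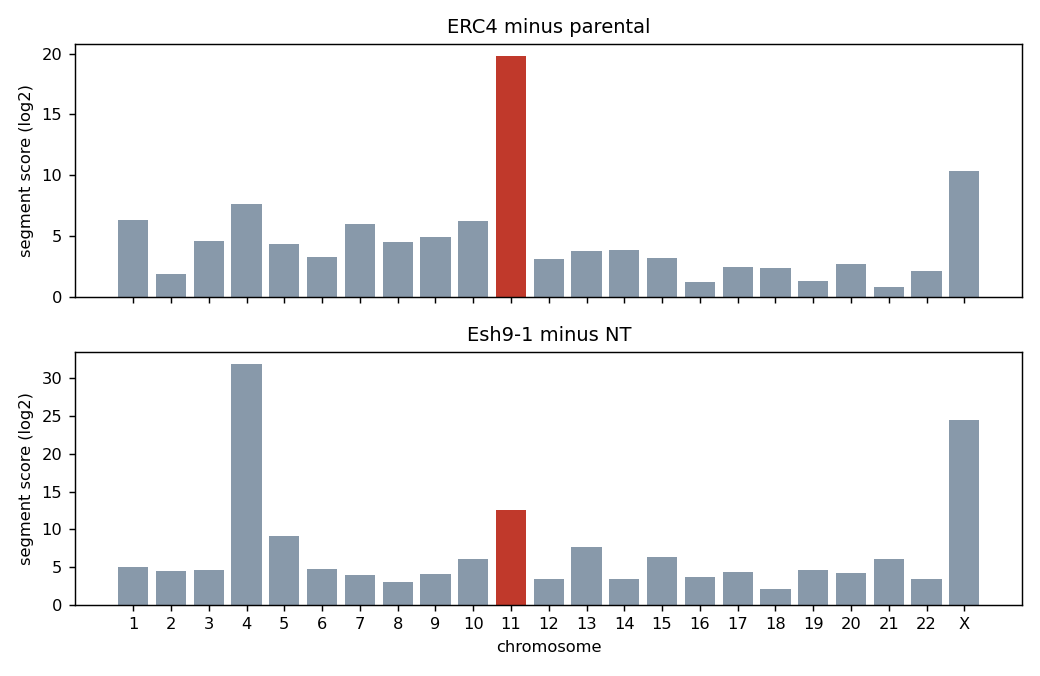
Score of the best run of neighbouring genes on each chromosome (sum of log2 change minus 0.5) in ERC4 minus parental (top) and Esh9-1 minus NT (bottom), with chromosome 11 in red. Chromosome 11, whose members were chosen on ERC4 minus parental, ranks first there at 19.79. In Esh9-1 its best run, from NNMT to TAGLN, holds no member and scores 12.51.

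Of the 37 measured members, 25 had all 3 ERC4 arrays above all 3 parental arrays, 6 had them all below and 6 overlapped. Over all genes, 29.8% lay above and 30.7% below. At least 2-fold higher were 13 members, beside 4.51% of all genes. The members were chosen on this comparison, so nothing is read from their counts. Of the 24 members between PICALM and MTMR2, 19 were bright enough for the search and 5 were not. PANX1, SMCO4, FZD4 and FUT4, 4 of the 19, reached the level only through their ERC4 mean.

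**Figure D3:**
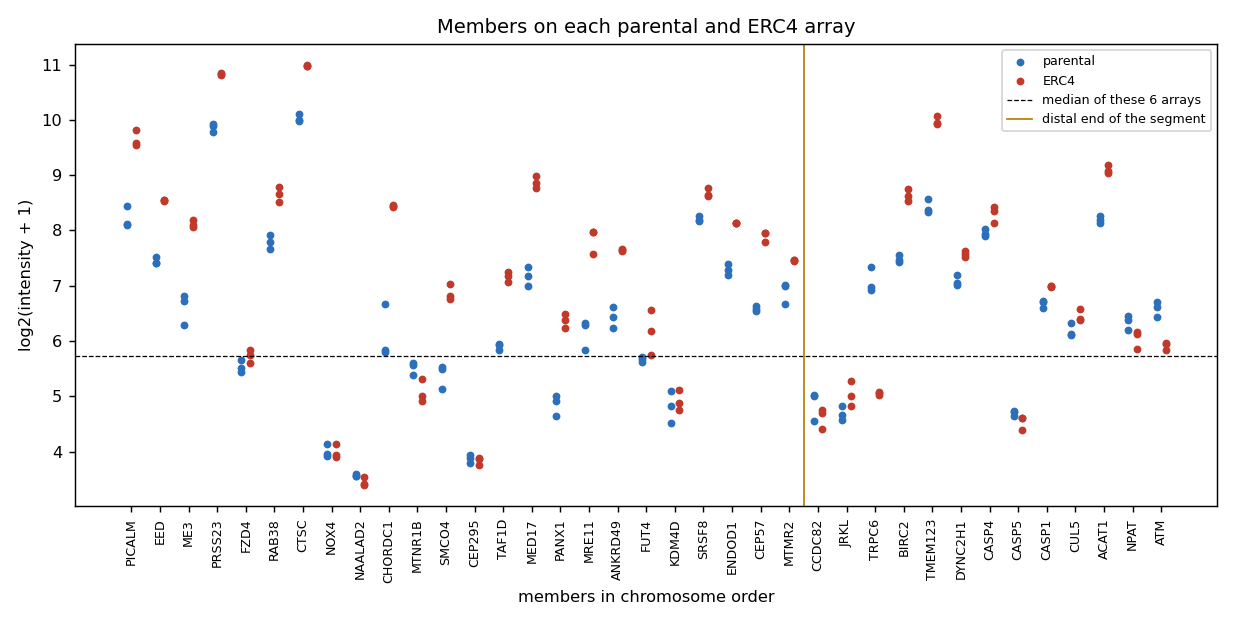
Log2(intensity + 1) of the 37 measured members on the 3 parental (blue) and 3 ERC4 (red) arrays, in chromosome order, with the distal end of the segment as a line and the median of the 6 arrays, 5.72, dashed. From PICALM to MTMR2, all ERC4 arrays lie above the parental ones in 18 of the 19 searched members and in 0 of the 5 dim ones, beside 29.8% of all genes. PANX1, SMCO4, FZD4 and FUT4 were searched only through their ERC4 mean, and FZD4 is the searched member whose arrays overlap. Beyond the distal end the direction varies.

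The first block of members ran from PICALM to CTSC, with 7 searched genes and a median change of 0.96. PICALM, which helps assemble clathrin coats, had log2 levels of 8.12, 8.43 and 8.10 in parental and 9.82, 9.54 and 9.59 in ERC4 cells. The groups were apart by more than their own spread, and the ratio of means was 2.69-fold (1.43 ± 0.10). Its other 4 probe sets were higher too, by 0.49 to 2.18. EED, the subunit of Polycomb repressive complex 2 that binds the methylated histone tail, stood at 7.53, 7.41 and 7.41 in parental and 8.53, 8.55 and 8.55 in ERC4 cells, or 2.14-fold (1.09 ± 0.06). ME3, a mitochondrial malic enzyme gene, went from 6.29, 6.72 and 6.82 to 8.07, 8.09 and 8.19, or 2.85-fold (1.51 ± 0.11). In both, the lowest ERC4 array lay above the highest parental array.

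The serine protease gene PRSS23 had levels of 9.79, 9.93 and 9.89 in parental and 10.85, 10.82 and 10.83 in ERC4 cells, a 1.95-fold difference. CTSC, which encodes a lysosomal dipeptidyl peptidase that activates granule proteases, had 9.98, 10.10 and 9.99 against 10.97, 10.97 and 10.99, or 1.94-fold. RAB38, a small GTPase gene of lysosome-related organelles, had 7.66, 7.79 and 7.93 against 8.78, 8.65 and 8.51, or 1.81-fold. The ERC4 arrays of these 3 genes lay apart from and above the parental ones, by less than in PICALM and ME3. FZD4, a WNT and norrin receptor gene, was the exception, at 5.45, 5.66 and 5.51 against 5.75, 5.61 and 5.84 (0.19 ± 0.12). Its groups overlapped, at levels close to the array median.

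Between CTSC and SMCO4 lay members that are dim in these cells, with ERC4 arrays that overlapped the parental ones or lay below them. NOX4, which makes reactive oxygen species, had a mean log2 level of 4.00 in both groups. NAALAD2, a glutamate carboxypeptidase gene, had 3.57 in parental and 3.45 in ERC4 cells, and the melatonin receptor gene MTNR1B had 5.52 and 5.07. Farther on, the centriole gene CEP295 stood at 3.87 and 3.84, and the histone demethylase gene KDM4D at 4.81 and 4.91. All 5 means lay under the array median of 5.72 in both groups, where a change cannot be read well, and the 18 dim genes of the whole span had a median change of -0.05. Of these 18, 3 had all ERC4 arrays above the parental ones and 6 below, beside 29.8% and 30.7% of all genes, and nothing is read from these counts.

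In the midst of these dim genes stood CHORDC1, the member with the largest difference. It encodes a co-chaperone of HSP90 whose gene is known to respond to heat shock. Its parental levels were 5.80, 6.67 and 5.84 and its ERC4 levels 8.47, 8.45 and 8.43, which is 5.07-fold (2.34 ± 0.17). The parental array at 6.67 stood above the other two, while the ERC4 arrays nearly coincided. Its promoter is shown because the gene stands out from its neighbours, as the 250 bases before the start site on the minus strand at chr11:90223050-90223299 (RefSeq, GRCh38.p14), with matches to the heat shock element pair GAANNTTC in capitals.

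CHORDC1: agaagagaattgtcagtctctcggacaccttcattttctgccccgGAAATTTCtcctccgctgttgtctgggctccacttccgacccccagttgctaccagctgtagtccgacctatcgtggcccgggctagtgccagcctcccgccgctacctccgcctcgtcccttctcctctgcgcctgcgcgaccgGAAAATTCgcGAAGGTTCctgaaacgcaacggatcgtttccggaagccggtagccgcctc

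This stretch held 3 matches, none of which overlapped a match to another of the motifs searched. The motifs were this one, the CCAAT box (CCAAT), the ETS core (CCGGAAGT) and the NRF1 core, each on both strands. Of 34943 promoter stretches of 250 bases, 5.8% held GAANNTTC at least 1 time. A match describes the letters and is no evidence of binding.

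The second block, from CHORDC1 to ANKRD49, held 7 searched members and had the highest median of the 3 blocks, 1.51, with changes from 1.22 to 2.34. SMCO4 and PANX1, whose change is this median, reached the level of the search only through their ERC4 mean. The dim members MTNR1B (-0.44) and CEP295 (-0.03) lie in the same stretch and were not searched. The order of the blocks thus rests in part on that filter, and these blocks were drawn after the values were seen. SMCO4, which encodes a small single-pass membrane protein, had levels of 5.50, 5.13 and 5.52 in parental and 6.81, 7.04 and 6.75 in ERC4 cells, or 2.79-fold. TAF1D, a subunit gene of the RNA polymerase I initiation factor, had 5.84, 5.93 and 5.95 against 7.25, 7.18 and 7.07, or 2.39-fold. The ERC4 arrays of both lay above the parental ones by at least 1 on the log2 scale. MED17, which encodes a subunit of the Mediator head, had 7.002, 7.33 and 7.18 against 8.78, 8.98 and 8.86, or 3.26-fold (1.70 ± 0.08). PANX1, a gene for a membrane channel that releases ATP, had 4.92, 5.01 and 4.65 against 6.49, 6.23 and 6.38, or 2.85-fold. Its parental levels lay under the array median, so that the size of its fold rests on dim signal.

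MRE11, the nuclease of the complex that senses double-strand breaks, lies head to head with the ankyrin repeat gene ANKRD49. MRE11 had levels of 5.84, 6.30 and 6.33 in parental and 7.57, 7.98 and 7.97 in ERC4 cells, or 3.22-fold (1.69 ± 0.13). A second MRE11 probe set, dim in both groups, had a change of -0.31. ANKRD49 had 6.62, 6.44 and 6.24 against 7.67, 7.64 and 7.65, or 2.33-fold (1.22 ± 0.09). Both genes of the pair were thus higher on every ERC4 array.

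The pair was 1 of 3 head-to-head pairs among the 37 members that had a promoter entry in RefSeq, and the 3 fell on different sides of the distal end. CCDC82 and JRKL, the pair just outside it, share a start region of 100 bases, and NPAT and ATM, a distal pair, one of 428 bases. The pairs are shown because they let both genes of a shared start region be compared inside and outside the segment. Each stretch is written on the plus strand of GRCh38.p14, with matches to the CCAAT box on either strand in capitals. The stretch of MRE11 and ANKRD49 is all 139 bases between the start sites (chr11:94493845-94493983), that of CCDC82 and JRKL all 100 bases (chr11:96389913-96390012), and that of NPAT and ATM the 250 bases before the start of ATM (chr11:108222817-108223066).

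MRE11 and ANKRD49: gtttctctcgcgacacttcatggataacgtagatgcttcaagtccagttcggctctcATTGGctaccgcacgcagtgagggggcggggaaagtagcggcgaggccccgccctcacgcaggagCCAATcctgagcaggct

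CCDC82 and JRKL: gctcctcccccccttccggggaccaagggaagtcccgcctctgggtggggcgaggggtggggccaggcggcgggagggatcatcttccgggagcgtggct

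NPAT and ATM: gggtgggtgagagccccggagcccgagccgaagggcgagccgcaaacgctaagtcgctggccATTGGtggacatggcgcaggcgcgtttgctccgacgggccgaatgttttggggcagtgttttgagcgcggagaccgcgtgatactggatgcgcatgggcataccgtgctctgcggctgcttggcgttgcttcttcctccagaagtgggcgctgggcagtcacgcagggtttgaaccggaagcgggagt

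CCAAT matched at 2 places between MRE11 and ANKRD49, at 1 place before ATM and at 0 places between CCDC82 and JRKL. Of 34943 promoter stretches of the same length next to a start site, 22.5% held it at 139 bases, 32.0% at 250 and 18.1% at 100. The other 3 motifs matched in none of these stretches.

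The third block, from FUT4 to MTMR2, had the lowest median change, 0.57, over 5 searched members. FUT4, a fucosyltransferase gene that builds the Lewis x antigen, had levels of 5.71, 5.61 and 5.68 in parental and 5.74, 6.18 and 6.57 in ERC4 cells, or 1.41-fold (0.50 ± 0.15). Its lowest ERC4 array lay close to the parental ones, and its other probe set was higher by 1.21. SRSF8, a splicing factor gene with close relatives whose transcripts may share its probes, had 8.17, 8.19 and 8.27 against 8.76, 8.64 and 8.63, or 1.38-fold, with 0.97 on the log2 scale in its other probe set. ENDOD1, a nuclease-domain gene, had 7.40, 7.28 and 7.20 against 8.13, 8.13 and 8.14, or 1.79-fold. The ERC4 arrays of these genes lay above the parental ones, by less than in the second block.

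CEP57, a centrosome gene, had levels of 6.53, 6.64 and 6.58 in parental and 7.95, 7.96 and 7.79 in ERC4 cells, or 2.49-fold (1.31 ± 0.07). Its 4 other probe sets were higher by 1.21 to 2.29. MTMR2, a phosphoinositide phosphatase gene, had 6.67, 7.02 and 6.99 against 7.45, 7.47 and 7.46, or 1.49-fold (0.57 ± 0.09), and its other probe sets were higher by 0.36 and 0.35. The step between the last 2 genes of the run was thus seen in every probe set of both. Over all 37 measured members, 42 of 64 probe sets had all ERC4 arrays above the parental ones, 10 below and 12 overlapped. The share above was 28.6% of all probe sets, and nothing is read from the members' count.

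Beyond MTMR2 the 13 measured members had a median change of 0.31 and no common direction. CCDC82, a coiled-coil gene, had levels of 5.02, 5.01 and 4.55 in parental and 4.41, 4.70 and 4.75 in ERC4 cells. JRKL, which derives from a transposase, had 4.83, 4.66 and 4.58 against 4.83, 5.00 and 5.28. Both pairs of groups overlapped at levels under the array median. TRPC6, which encodes a calcium-permeable cation channel, had 6.97, 6.92 and 7.33 in parental and 5.07, 5.03 and 5.07 in ERC4 cells, a change of -2.02 ± 0.12. The ERC4 arrays lay below all parental ones, and its other probe set had a change of -1.35.

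A short second stretch of higher genes followed at 11q22. The best run distal to MTMR2, searched for after the data were seen, held YAP1 and the members BIRC2 and TMEM123, with a median change of 1.15. BIRC2 had levels of 7.43, 7.55 and 7.47 in parental and 8.62, 8.76 and 8.53 in ERC4 cells, or 2.23-fold (1.15 ± 0.07). TMEM123, a membrane mucin-like protein gene, had 8.37, 8.56 and 8.34 against 9.93, 10.06 and 9.95, or 2.94-fold (1.56 ± 0.09). YAP1 was higher by 1.02. The ERC4 arrays of both members lay above the parental ones by about as much as in the segment. MMP7, the next measured gene, had a change of -1.86.

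Farther out the differences were small, apart from ACAT1 and ATM. DYNC2H1, the ciliary dynein heavy chain gene, was higher by 0.49, and the inflammatory caspase genes CASP4 and CASP1 by 0.35 and 0.31, while CASP5, dim in both groups, had a change of -0.16. These 3 genes are close relatives, and their probes may share transcripts. CUL5, a scaffold gene of ubiquitin ligases, had a change of 0.26 in the probe set that stands for it and of -0.10 and -0.19 in the other 2. The one at -0.10 was the brightest on the parental and ERC4 arrays, at 6.96 and 6.86, so that no direction is given for CUL5. ACAT1, a mitochondrial acetyl-CoA acetyltransferase gene, had 8.13, 8.18 and 8.26 in parental and 9.08, 9.18 and 9.04 in ERC4 cells, or 1.88-fold (0.91 ± 0.07). NPAT, an activator of histone genes, had a change of -0.29, with other probe sets at 0.15 and -0.23. ATM, the kinase that signals double-strand breaks, had 6.43, 6.70 and 6.61 against 5.94, 5.96 and 5.84 a change of -0.66 ± 0.08. A second ATM probe set had one of -0.65, and the remaining one, dim in both groups, gave 0.02. The distal head-to-head pair was thus not higher in ERC4 cells in the probe sets that stand for it.

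The 6 members with all ERC4 arrays below the parental ones were NAALAD2, MTNR1B, TRPC6, CASP5, NPAT and ATM. Only TRPC6, NPAT and ATM were left after quantile normalization, of either form, and only MTNR1B, TRPC6 and ATM after median centring.

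In Esh9-1 against NT cells, the members did not move as a stretch. Of the 37, 13 were called higher and 9 lower (limma, with an adjusted p under 0.05), and 15 were not called. The background was 25.3% higher and 24.6% lower among the 11963 genes. The median change of the members was -0.01, against -0.02 for all genes. The 19 searched members of the span divided into 7 higher, 5 lower and 7 not called, with a median of 0.08, and the 13 distal members into 5 higher, 3 lower and 5 not called. Over the 30 genes of the segment, the median relative to the NT mean was 0.08, 0.03 and 0.12 on the 3 Esh9-1 arrays and 0.03, -0.02 and -0.01 on the NT arrays.

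**Figure D4:**
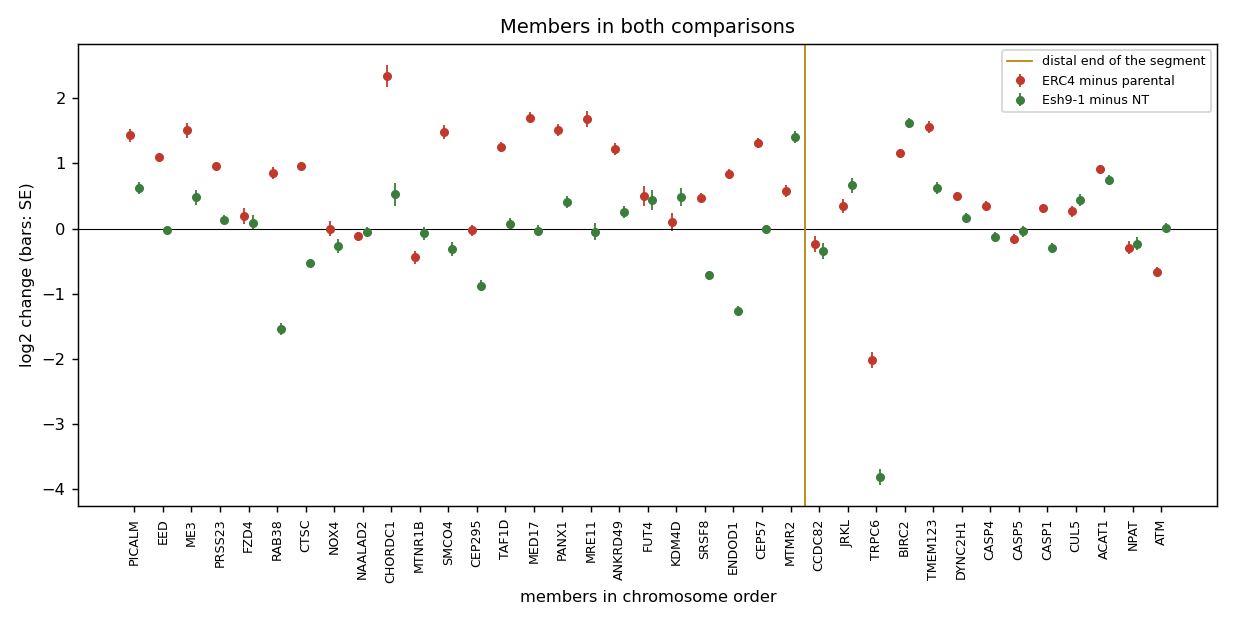
Log2 change of each measured member, with its standard error, in ERC4 minus parental (red) and Esh9-1 minus NT (green), in chromosome order, with the distal end of the segment as a line. Red points from PICALM to MTMR2 lie mostly above 0.4, while green points scatter around 0, from -1.54 in RAB38 to 1.40 in MTMR2 within the segment and to -3.82 in TRPC6 beyond it.

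Changes of at least 2-fold in Esh9-1 cells were found in 2 members that rose and 3 that fell, beside 4.89% and 4.11% of all genes. BIRC2 had log2 levels of 9.73, 9.63 and 9.65 in NT and 11.33, 11.26 and 11.29 in Esh9-1 cells, and rose 3.08-fold (1.62 ± 0.07, limma adjusted p = 1e-10). MTMR2 had 9.26, 9.02 and 9.16 against 10.54, 10.53 and 10.58, and rose 2.65-fold (1.40 ± 0.09, limma adjusted p = 7.8e-09). Its other probe sets rose less, by 0.51 each. In both genes the Esh9-1 arrays lay more than 1 above the NT arrays on the log2 scale.

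TRPC6 had levels of 8.97, 8.86 and 8.82 in NT and 5.34, 4.97 and 4.88 in Esh9-1 cells. It fell by 3.82 ± 0.12 (limma adjusted p = 2.4e-12), or 14.1-fold, to levels under the array median. RAB38 had 10.14, 10.13 and 10.33 against 8.75, 8.57 and 8.66, and fell by 1.54 ± 0.09 (limma adjusted p = 3e-09). ENDOD1 had 10.12, 9.94 and 9.91 against 8.75, 8.70 and 8.73, and fell by 1.26 ± 0.07 (limma adjusted p = 2e-09). RAB38 and ENDOD1 thus lay lower in Esh9-1 than in NT cells and higher in ERC4 than in parental cells, while TRPC6 was lower in both comparisons.

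The other calls in Esh9-1 cells were smaller than 2-fold in the probe set that stands for each gene. ACAT1 rose by 0.74, JRKL by 0.67, PICALM and TMEM123 by 0.63 each, CHORDC1 by 0.52, KDM4D by 0.49, ME3 by 0.48, CUL5 and FUT4 by 0.44 each, PANX1 by 0.41 and ANKRD49 by 0.26. CEP295 fell by 0.88, SRSF8 by 0.72, CTSC by 0.53, CCDC82 by 0.35, SMCO4 by 0.32 and CASP1 by 0.30. Among these calls, KDM4D (5.76 in NT and 6.25 in Esh9-1 cells), CEP295 (5.39 and 4.52) and CCDC82 (5.65 and 5.30) were dim. Their means lay under the median of 7.17 of these arrays in both groups, where a change cannot be read well. FUT4 rose more in its other probe set, by 1.23, from 6.87 in NT to 8.11 in Esh9-1 cells (limma adjusted p = 7.8e-09). PICALM was the member whose probe sets were called in opposite directions, at 0.63 and 0.78 against -0.86 and -0.42. Of the 22 calls, 17 were kept on leaving out any 1 of the 6 arrays. CHORDC1 lost its call without NT 2, NT 3, Esh9-1 2 or Esh9-1 3 (limma adjusted p = 0.068, 0.05, 0.062 and 0.055). SMCO4 lost it without the same 4 arrays (limma adjusted p = 0.054, 0.13, 0.069 and 0.11). ANKRD49 and CCDC82 lost it without NT 2, NT 3, Esh9-1 1 or Esh9-1 2 (limma adjusted p = 0.066, 0.078, 0.068 and 0.077, and 0.068, 0.066, 0.054 and 0.074). FUT4, in the probe set that stands for it, lost it without NT 1, NT 2 or Esh9-1 1 (limma adjusted p = 0.074, 0.079 and 0.11).

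Several genes of the ERC4 segment showed little difference in Esh9-1 cells. EED (-0.02 ± 0.06), TAF1D (0.08 ± 0.08), MED17 (-0.03 ± 0.08), MRE11 (-0.05 ± 0.13), CEP57 (-0.01 ± 0.07), PRSS23 (0.14 ± 0.07) and FZD4 (0.09 ± 0.12) were not called. Of the other 4 CEP57 probe sets, however, 3 rose, by 0.37, 0.58 and 0.39. Distal to the segment, ATM (0.01 ± 0.08), CASP5 (-0.05 ± 0.08), CASP4 (-0.13 ± 0.08), DYNC2H1 (0.16 ± 0.07) and NPAT (-0.23 ± 0.10) were not called. Another ATM probe set, however, rose by 0.53, from 6.80 in NT to 7.33 in Esh9-1 cells. An NPAT probe set rose by 0.23, from 8.12 to 8.35. It was brighter on these arrays than the one that stands for NPAT, so that no direction is given for NPAT here. The dim members NOX4, NAALAD2 and MTNR1B completed the 15 members not called. PRSS23 and DYNC2H1 were called without NT 1 (limma adjusted p = 0.046 and 0.027), NPAT without NT 3 or Esh9-1 2 (0.048 and 0.043), and NOX4 without Esh9-1 3 (0.021).

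Partners of the members' products were counted in lists of known complexes and pathways, and for Esh9-1 a list of 11q22 genes was added. In ERC4 against parental cells, members left out, limma called 28.9% of all genes higher and 28.8% lower. Bright genes were higher more often. By the count of arrays without overlap, 42.5% of the 6872 searched genes of the other chromosomes lay above, against 29.8% of all genes. Of 16 Mediator genes other than MED17, 11 were higher, 0 lower and 5 not called, with a median change of 0.33. Of 6 genes of Polycomb repressive complex 2, around EED, 3 were higher and 1 lower, and of 8 double-strand break genes, around MRE11 and ATM, 3 were higher and 2 lower. Of 6 inflammasome genes, 0 were higher and 2 lower, of 7 genes of the cIAP and TNF receptor complex 2 and 1, and of 10 Notch transcription genes 4 and 4.

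In Esh9-1 against NT cells, members included, 6 of 8 genes of the cIAP and TNF receptor complex rose and 1 fell, where 25.3% of all genes were called higher and 24.6% lower. The largest change was that of TRAF1, an adaptor of this complex, at 1.96 ± 0.16 (limma adjusted p = 9.6e-08). Of 7 Polycomb complex genes 4 rose and 2 fell, with RBBP7, a histone-binding subunit, at 1.40 ± 0.07. Of 10 double-strand break genes 2 rose and 3 fell, with RAD50, the partner of MRE11, at 1.11 ± 0.12. Of 9 inflammasome genes 1 rose and 4 fell, with the DNA sensor gene AIM2 at -1.28 ± 0.10. Notch transcription genes rose in 5 of 10 cases and fell in 2, with the ligand gene JAG1 at 1.36 ± 0.15, and Mediator genes rose in 4 of 17 and fell in 5, with MED27 at 0.49 ± 0.07. Of 11 measured 11q22 genes known from copy number gains in carcinomas, 4 rose and 3 fell, TRPC6 with the largest change. The counts of the Mediator, double-strand break and 11q22 lists lay near the shares of all genes.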

How the data were processed

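Transcript levels were measured on 12 arrays in 4 groups of 3, taken from the sample titles. The authors deposited probe set intensities on a linear scale, which the submitters' processing notes attribute to RMA. The RMA version, and which arrays shared a run of it, is not given in the sources used here. Intensities were taken to log2(value + 1), which understates changes of dim genes. Of 22277 probe sets, 19070 had a single symbol in GEO's platform annotation, 1043 several and 2164 none. A gene with several probe sets was read from the one with the highest average across the 12 arrays, which need not be the brightest within each set of 6. Gene order was read from RefSeq's GRCh38.p14 gene list and served only to find neighbours, for 11954 of 11963 genes.

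Tests used limma 3.58.1 under R 4.3.3, with 1 linear model over the 12 arrays that left 8 residual degrees of freedom, moderated by eBayes, checked on simulated data, two-sided, adjusted over all genes. Errors are standard errors from this fit, and values of further probe sets come from a fit on every probe set. The segment search takes the run of neighbours with the largest sum of log2 change minus 0.5. Its genes had to reach the median of the 6 arrays in 1 of the groups compared. Text names every member. Of other genes it names those in the segment or next to its ends, the largest call of each list, and, chosen after their values were seen, those that end or follow a run.

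The members, lists and tests were chosen with earlier results of these data known. Alternatives were the replicate block, fits of 6 arrays, trend and robust eBayes, array weights, quantile normalization, median centring, no pseudocount, no dim genes, mean or single probe sets, other thresholds and leaving out each array. Same-numbered arrays deviated together at correlations of -0.12 to 0.07, so the numbers were not taken as pairs. The number of arrays limits the precision. Figures were drawn with matplotlib 3.10.9.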

Additional observations from a re-analysis of the deposited data

How the results depend on the processing

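The segment in ERC4 kept a median change of 1.16 to 1.23 under quantile normalization, no pseudocount, single probe sets and a level of 0.7. It was 1.16 after quantile normalization within each set. Median centring gave 51 genes and a median of 1.01, the mean of probe sets 47 and 0.96, no filter on dim genes 48 and 0.84, and a level of 0.3 gave 203 and 0.50. Leaving out 1 array gave 29 to 30 genes and medians of 1.21 to 1.29. Members with all ERC4 arrays below the parental ones numbered 6 as deposited and 3 after quantile normalization of either form or median centring. CUL5 changed sign in ERC4 with the mean of probe sets (-0.0064). With the replicate block, 13 members were called higher and 10 lower in Esh9-1, as NOX4 was added (limma adjusted p = 0.026). The numbers do not pair the samples by the check of their deviations. Leaving out 1 array gave 10 to 14 called higher and 7 to 10 lower, and other settings 10 to 16 and 7 to 10. Partner list calls were 39 in Esh9-1 and 33 in ERC4, and all their counts stayed within 1.5 times. The cause of these changes was not tested. Members under the array median have little signal over background, so that a small change there cannot be read.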

Other observations

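Runs of neighbouring genes on other chromosomes were found by the same search in Esh9-1 minus NT. On chromosome 4 the best run went from CXCL8 to FAT1, with a median log2 change of 0.64 and a score of 31.95. On chromosome X it went from AP1S2 to SRPX, with 23 genes, a median of 1.40 and a score of 24.45. Both scores exceed the 19.79 of the 11q segment in ERC4, which held 30 genes with a median of 1.21. The score is a sum over genes, so that a long run can score high at a small median change. In ERC4 minus parental, the best remaining run on chromosome 11 went from TCIRG1 to PPFIA1, proximal to the members, with 13 genes and a median of 0.88. These runs were described after their values were seen and carry no test.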
